A study of Mus musculus with 53 samples.

Results

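Mouse embryonic stem (ES) cells that lack Ezh2 were compared with wild-type ES cells after 6 days without LIF, a cytokine added to ES cell medium to sustain self-renewal. The comparison rests on 10 of the 53 Affymetrix arrays of the study, chosen by their titles: 5 of Ezh2-null cells and 5 of wild-type cells, both at day 6 of LIF withdrawal. The wild-type arrays come from the J1 line (replicates 1 to 3) and the CJ7 line (replicates 4 and 5). No line is named for the Ezh2-null cells, which the protocol treats as a single mutant line, so genotype and line cannot be told apart. All 10 cultures had been grown on feeder fibroblasts, which were thinned out before harvest by letting them settle in plates. What the biological replicates of the labels repeat is not stated, and p-values therefore measure the spread between these arrays, which may be technical. Replicates 1 and 2 of each group form array set 1 and replicates 3 to 5 array set 2, a division taken from an earlier look at these data, and the set entered the fit as a block.

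Polycomb repressive complex 2 (PRC2) places methyl groups on lysine 27 of histone H3, and Ezh2 is the enzyme within it. In ES cells PRC2 marks silent promoters of developmental regulators, many of them rich in CpG, and the Ink4a/Arf/Ink4b locus is a classical target. On withdrawal of LIF, wild-type ES cells shut down the naive pluripotency network and pass through an epiblast-like state, and some of them enter a program like that of the primitive streak, from which mesoderm and endoderm arise.

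Signal is given in the units of the deposited values. Lists of 5 values run from replicate 1 to replicate 5, so that the first 2 belong to array set 1. Sizes are log2 fold changes of Ezh2-null over wild type ± SE from limma on log2(signal + 32), and adjusted p-values are from limma with Benjamini-Hochberg adjustment over 13807 genes. The added 32 understates the change of dim genes. Genes counted as called had a change of at least 2-fold with an adjusted p under 0.05. In cultures of mixed cells, fewer cells of a type and less RNA per cell cannot be told apart. Median signals of the 10 arrays lay between 55.6 and 62.5, and the median log2 fold change over all genes was 0.00.

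Some arrays stood apart from others of their group, and each of the 10 arrays was left out in turn. The setting with Ezh2-null replicates 1 to 3 alone was added after seeing the data. Ezh2-null replicate 3 was low for pluripotency genes among the Ezh2-null arrays. Ezh2-null replicates 4 and 5 had very low signal for Y-linked genes: Eif2s3y gave 556, 569, 251, 14.8 and 12.9 in the Ezh2-null arrays, against 428, 506, 289, 258 and 301 in the wild-type arrays, and Uty gave 139, 134, 63, 5.4 and 11.3, against 112, 143, 87.8, 64.8 and 109. The same 2 arrays had a wild-type level of the imprinted gene Grb10, which was low in Ezh2-null replicates 1 to 3. Eif2s3y was also very low in 2 of the 4 Ezh2-null arrays of day 2, at 9.2 in the lowest, and in none of the 6 of day 0, where the lowest was 361. Among wild-type arrays, J1 replicates 1 and 2 held embryonic globin RNA and replicates 3 to 5 little of it. The number of arrays limits the precision throughout.

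A total of 419 genes were called at day 6 (3.03% of those tested). Of these, 263 were higher in Ezh2-null cells (1.9%) and 156 were lower (1.13%). The 5 Ezh2-null arrays did not overlap the 5 wild-type arrays for 287 of the called genes (2.08% of genes tested), and over all genes tested, called or not, the groups did not overlap for 1560 (11.3%). With no fold minimum, 4163 genes passed an adjusted p of 0.05 (30.2%) and 5636 an unadjusted p of 0.05 (40.8%), so the fold minimum sets the size of the result. The higher genes were led by Zic1, Parm1, Sema3c and the cell cycle inhibitors Cdkn2b and Cdkn2a, and the lower ones by Aplnr, Mixl1, the embryonic globin gene Hbb-bh1, Igfbp3, Lhx1 and Eomes. When each array was left out in turn, 193 of the 263 higher genes and 94 of the 156 lower ones were called in all 10 fits.

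**Figure D1:**
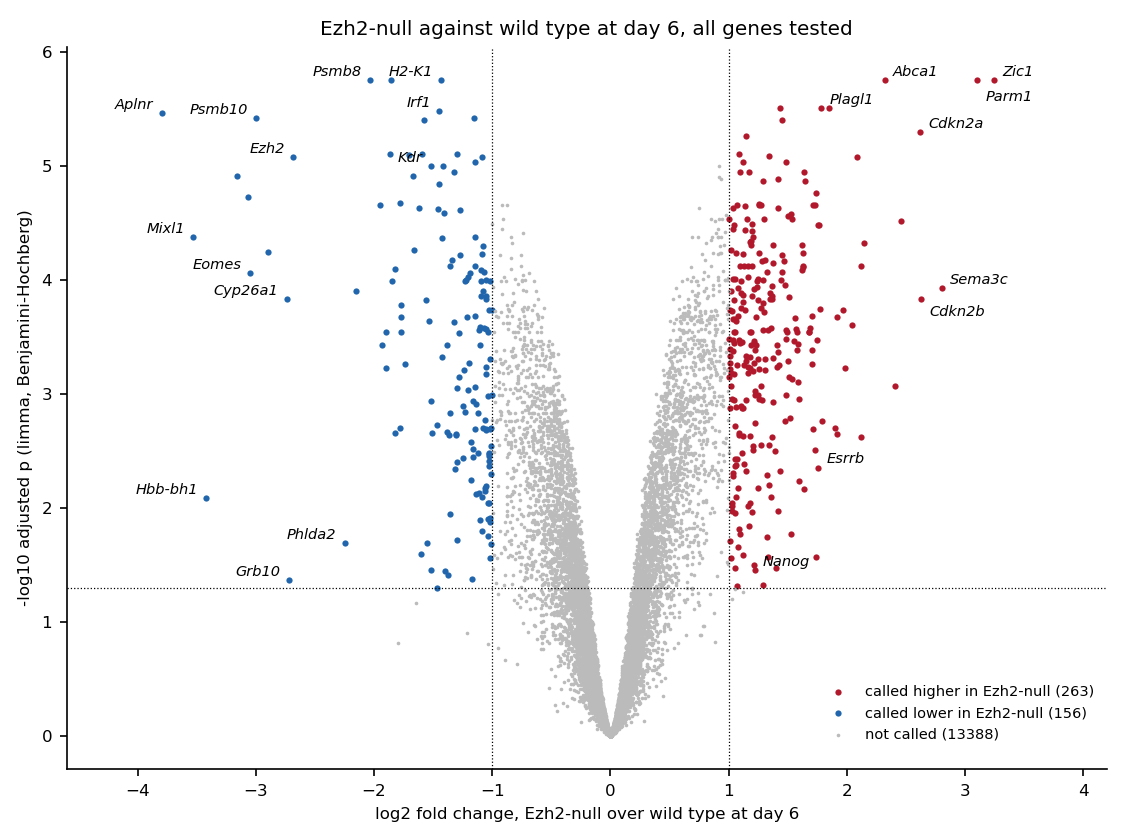
Each point is 1 of 13807 genes, placed by its log2 fold change, Ezh2-null over wild type at day 6 (x axis), and by -log10 of its limma adjusted p (y axis). The 263 called higher are red, the 156 called lower blue, and dotted lines mark an adjusted p of 0.05 and a 2-fold change; Zic1 and Parm1 lie farthest to the right and Aplnr and Mixl1 farthest to the left.

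The targeted gene and its complex were examined first. Ezh2 gave 152, 152, 52.6, 57 and 82.2 in Ezh2-null arrays, against 706, 704, 728, 845 and 851 in wild-type arrays. The highest Ezh2-null array was several-fold under the lowest wild-type array, and the change was -2.68 ± 0.19 (adjusted p = 8.35e-06). The residual Ezh2 signal was higher in array set 1 than in set 2, with a change of -2.0 in set 1 and -3.14 in set 2, and the difference between the sets was called (-1.14, adjusted p = 0.012). Of the 13 genes of PRC2 and its accessory proteins, Ezh2 was the only one called. The core subunit Eed had 0.27 ± 0.14 and the core subunit Suz12 -0.29 ± 0.18. Ezh1, the paralog that can methylate the same residue, had -0.05 ± 0.09, and Jarid2, which helps to recruit the complex, had 0.04 ± 0.21. None of these 4 passed (adjusted p = 0.168, 0.27, 0.696 and 0.897). Among 15 genes of PRC1, the complex that binds the PRC2 mark, none was called, and the member with the lowest value was Cbx2 at -0.98 ± 0.20. Cbx2 was called lower in 4 of the 10 fits with an array left out, those without replicate 1 or 2 of either group.

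Among the neural genes, Zic1, a zinc finger transcription factor of the neural plate and somites, had the largest rise of all genes. It gave 774, 867, 544, 299.5 and 394 in Ezh2-null arrays, against 29.8, 47.2, 29.7, 16.7 and 20.3 in wild-type arrays. The groups stood 6.35-fold apart at their nearest arrays, and the change was 3.25 ± 0.17 (adjusted p = 1.75e-06). Another Zic1 probe set changed in the same direction by 1.22. Zic1 was alone in its list: of 24 neural genes 1 was called higher and none lower, and the list's median was 0.08. The neural progenitor factors Sox1 (-0.16 ± 0.09) and Pax6 (0.21 ± 0.09) were not called. The Sox1 probe set used gave no more than 7.5 in any Ezh2-null array. Another Sox1 probe set averaged 23.2 in Ezh2-null arrays and 34.7 in wild-type arrays, a change of -0.27.

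Of 31 other developmental transcription factors, 1 was called higher and 1 lower (background 1.9% and 1.13% of genes). Meis1, a homeodomain partner of Hox proteins, gave 432, 353, 128.3, 113 and 126 in Ezh2-null arrays, against 176, 185, 31.2, 22.6 and 22.2 in wild-type arrays. Within each array set the Ezh2-null arrays lay above the wild-type arrays, although the pooled groups overlap, and the change was 1.26 ± 0.10 (adjusted p = 2.13e-05). Msx1, a homeobox gene of early mesoderm and ectoderm, fell by 1.77 ± 0.21 (adjusted p = 0.000165), with no overlap between the groups. Meis2, a paralog of Meis1, had 0.997, just under the fold minimum, and was called higher in 4 of the 10 fits with an array left out. Of 23 Hox genes none was called higher over all arrays, although 3 were in set 2 (background 2.88%). Hoxb1 and Hoxb2, which switch on early in the streak, were called lower: Hoxb2 gave 45, 40.6, 20.4, 8.6 and 15.8 in Ezh2-null arrays, against 382, 293, 179.5, 60.3 and 69.7 in wild-type arrays. Its change was -1.78 ± 0.23 (adjusted p = 0.000287), and that of Hoxb1 was -1.47 ± 0.27 (adjusted p = 0.00188). The highest value among the other Hox genes was that of Hoxc8, 0.99 ± 0.18. It lay under the fold minimum, ranged from 0.85 to 1.11 with an array left out, and was called in 6 of those 10 fits. In set 1, 4 Hox genes were called lower (background 0.623%) and in set 2, 1 (background 2.91%). The median of the list was 0.22 against 0.00 over all genes.

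The cell cycle inhibitors encoded at the Ink4 locus were among the strongest rises. Cdkn2a encodes p16Ink4a and p19Arf, which restrain the cyclin D kinases and Mdm2. It gave 446, 674, 401, 306 and 336 in Ezh2-null arrays, against 30.9, 69.2, 23.5, 46.3 and 43.6 in wild-type arrays. The lowest Ezh2-null array was 4.43-fold above the highest wild-type array, and the change was 2.62 ± 0.17 (adjusted p = 5.02e-06). Its neighbour Cdkn2b, which encodes p15Ink4b, gave 750.1, 1649, 2279.8, 1947 and 2301 in Ezh2-null arrays, against 174, 455, 268, 185 and 205 in wild-type arrays. These groups did not overlap either, Ezh2-null replicate 1 was the lowest of its group, and the change was 2.63 ± 0.31 (adjusted p = 0.000147). Cdkn1a, the p21 inhibitor of cyclin-dependent kinases and a p53 target, gave 1483, 2503, 3635, 3065 and 3275 in Ezh2-null arrays, against 1151, 1221, 1319, 1065 and 1075 in wild-type arrays. Its change was 1.18 ± 0.18 (adjusted p = 0.000593), without overlap. Of the 14 genes listed as inhibitors and partners of the G1 kinases, 5 were called higher and none lower, the others being the pocket protein gene Rb1 (1.59 ± 0.22) and the D-type cyclin Ccnd2 (1.42 ± 0.11). Cyclin D2 drives the cycle rather than restraining it. Cdkn1b (-0.36), Cdkn1c (0.25) and Cdkn2c (0.27) were not called. All 5 genes were also called with each array left out and with Ezh2-null replicates 1 to 3 alone. Within the single fit 4 members were called higher in set 1 (background 1.42%) and 5 in set 2 (background 2.88%). With set 1 fitted alone 3 members were called higher, and Cdkn1a, Cdkn2b and Rb1 were not among them. Cdkn1a also lost its call with J1 as the only wild type.

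Of 16 p53 targets and cell death genes, all had values above 0, as did 6919 of the 13807 genes tested. The median was 0.67 against 0.00 over all genes, and 3 were called higher (background 1.9%). Besides Cdkn1a these were Mdm2, the ubiquitin ligase that degrades p53, and Fas, a death receptor. Fas gave 59.8, 77.6, 158, 116 and 139 in Ezh2-null arrays, against 22.5, 35.7, 37.5, 9.8 and 26.2 in wild-type arrays. The groups did not overlap, and the change was 1.26 ± 0.19 (adjusted p = 0.000605). Mdm2 had 1.01 ± 0.15 (adjusted p = 0.000529), and it dropped under 2-fold without wild-type replicate 4 or 5 or Ezh2-null replicate 3 or 5 (0.92 at the lowest) and with Ezh2-null replicates 1 to 3 alone (0.96). In array set 1 none of the 16 was called (median 0.43, background 1.42% higher). In set 2 there were 4, the same 3 among them (median 0.78, background 2.88% higher).

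Genes of DNA replication and mitosis lay lower, and their calls rested on array set 2. Of 24 proliferation genes, 6 were called lower, none higher, and the median was -0.85. The called members were the replication licensing genes Cdc6 and Mcm3, the mitotic kinases Plk1 and Aurkb, Birc5 and the topoisomerase Top2a. Plk1 gave 956, 759.7, 293, 705 and 503 in Ezh2-null arrays, against 1198, 1021, 1299.8, 1666 and 1599 in wild-type arrays. Ezh2-null replicate 3 was the lowest of all 10 arrays, the groups did not overlap, and the change was -1.11 ± 0.26 (adjusted p = 0.00743). Top2a gave 2963, 2393, 533, 1254 and 962 in Ezh2-null arrays, against 3091, 3132, 2749, 2545 and 2665 in wild-type arrays. Here Ezh2-null replicate 1 lay inside the wild-type range, and the change was -1.04 ± 0.27 (adjusted p = 0.0125). Without Ezh2-null replicate 3 none of the 24 was called: the 6 then ranged from -0.93 for Cdc6 to -0.78 for Top2a. There were 2 called without wild-type replicate 3 and 11 without Ezh2-null replicate 1. The list's median was -0.20 in set 1, where none was called, and -1.22 in set 2, where 16 were. At day 8, with CJ7 as the only wild type, the median was 0.05, with 1 called higher and none lower.

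**Figure D2:**
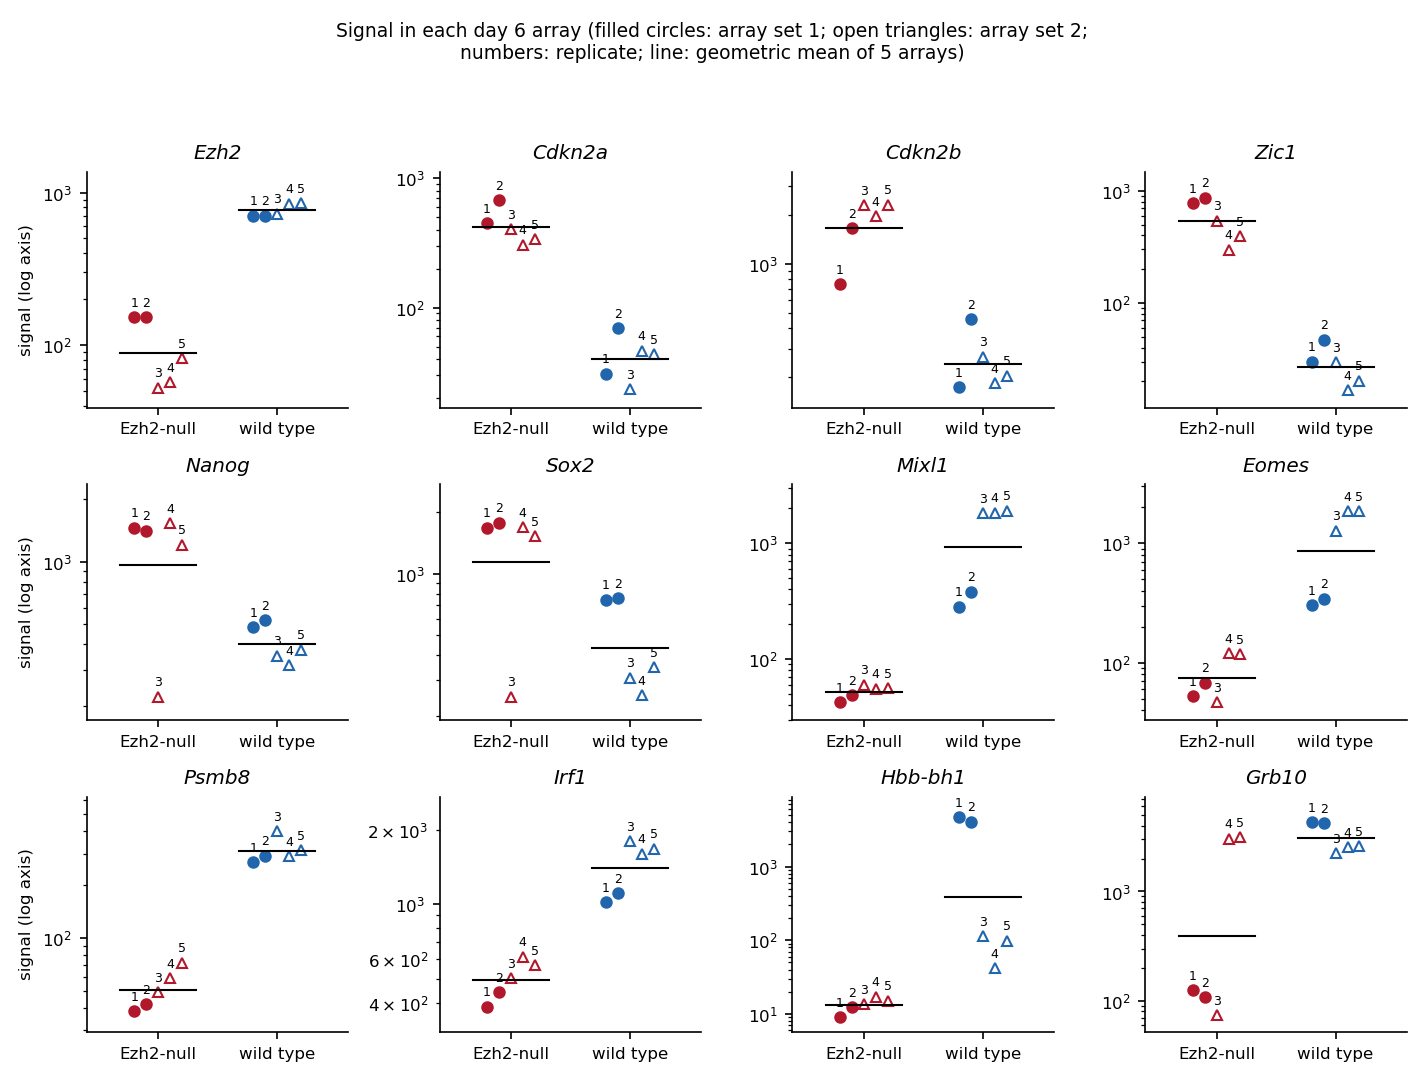
Signal (log axis) of 12 genes in the 5 Ezh2-null arrays (red, left) and the 5 wild-type arrays (blue, right) of day 6, with filled circles for array set 1, open triangles for set 2, replicate numbers beside the points and a line at the geometric mean. Cdkn2a, Zic1 and Psmb8 separate the groups in every array, whereas Nanog and Sox2 are low in Ezh2-null replicate 3, Hbb-bh1 is high only in wild-type replicates 1 and 2, and Grb10 is low only in Ezh2-null replicates 1 to 3.

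Many naive pluripotency genes were called higher in Ezh2-null cells, and 1 of the 5 arrays departed from the others. Of 25 tested genes, 14 were called higher and none lower, and the median was 1.09. Within a single fit over the 10 arrays, 3 were called higher in set 1, and in set 2 12 higher and 3 lower. Fitted on its own arrays alone, set 1 gave 11 called higher, and set 2 gave 10 higher and 3 lower. The count of 14 dropped to 8 without Ezh2-null replicate 4 and to 9 without Ezh2-null replicate 5 or wild-type replicate 4. Nanog, a homeodomain factor that sustains self-renewal, gave 1461, 1413, 223, 1537 and 1209.6 in Ezh2-null arrays, against 483, 523, 352, 316 and 376 in wild-type arrays. Replicate 3 lay below all wild-type arrays and the other 4 lay above all of them, so that the groups overlapped, and the change was 1.22 ± 0.39 (adjusted p = 0.0347). Sox2, the partner of Oct4, gave 1683, 1777, 249, 1689 and 1525 in Ezh2-null arrays, against 746, 761, 310.2, 254 and 348 in wild-type arrays. Again replicate 3 was the lowest of the 10 and the other 4 were the highest, and the change was 1.33 ± 0.40 (adjusted p = 0.0266).

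The orphan receptor genes of the naive network followed the same pattern. Esrrb gave 552, 586, 127, 842 and 668 in Ezh2-null arrays, against 211, 149, 96.2, 80.7 and 92.5 in wild-type arrays. The change was 1.76 ± 0.37 (adjusted p = 0.0044), although another Esrrb probe set had -0.02. Nr0b1, which encodes Dax1, gave 237, 230, 44, 358 and 267 in Ezh2-null arrays, against 49, 35.9, 29.1, 21.4 and 16.5 in wild-type arrays. Replicate 3 was within the wild-type range, and the change of 1.90 ± 0.35 (adjusted p = 0.002) was the largest of the list. Tfcp2l1 (1.73 ± 0.34), Nr5a2 (1.34 ± 0.30), Tcl1 (1.27 ± 0.25), Fbxo15 (1.17 ± 0.31), Dppa2 (1.36 ± 0.32), Klf4 (1.02 ± 0.16), Klf2 (1.09 ± 0.29), Zfp42 (1.40 ± 0.44) and the growth factor Fgf4 (1.10 ± 0.19) were called as well. Dppa5a, an RNA-binding protein gene of ES cells, gave 7288, 7384, 3239, 7767 and 7358 in Ezh2-null arrays, against 3331, 2201, 1521, 1809.9 and 1982 in wild-type arrays. Its replicate 3 overlapped wild-type replicate 1, and the change was 1.58 ± 0.22 (adjusted p = 0.000411). With each array left out in turn 8 members were called in all 10 fits: Dppa2, Dppa5a, Esrrb, Fgf4, Nr0b1, Nr5a2, Tcl1 and Tfcp2l1. Fbxo15 lost its call in 1 fit, Klf2 in 3, Klf4 in 4 and Zfp42 in 7.

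Not all pluripotency genes behaved alike. Pou5f1, which encodes Oct4 and stays on in the epiblast, gave 1050.1, 1328, 481, 2303 and 1869 in Ezh2-null arrays, against 921, 721, 1334, 1441 and 1251 in wild-type arrays. Ezh2-null replicates 1 and 2 lay inside the wild-type range, replicate 3 below it and replicates 4 and 5 above it. The difference of 0.17 ± 0.34 did not pass (adjusted p = 0.748). Lin28a (-0.95), Tdgf1 (-0.95) and Sall4 (-0.85), which the early epiblast also expresses, had the lowest values of the list and were not called, although Lin28a was called lower without wild-type replicate 2 or Ezh2-null replicate 1. Without Ezh2-null replicate 3, the lone array whose removal raised the count, 15 members were called higher, and the values were 1.69 (adjusted p = 9.86e-06) for Nanog, 1.78 (adjusted p = 0.000156) for Sox2 and 2.15 for Esrrb. Nanog lost its call without any other single array (adjusted p up to 0.0904), and Sox2 without Ezh2-null replicate 2, 4 or 5 or wild-type replicate 3 or 4 (up to 0.0718). With Ezh2-null replicates 1 to 3 alone 4 members were called, namely Dppa5a, Esrrb, Nr0b1 and Tfcp2l1. With those 3 arrays Nanog had 0.59 (adjusted p = 0.273) and Sox2 0.56 (adjusted p = 0.165). Pou5f1 had -0.31 (adjusted p = 0.572) with them. Without Ezh2-null replicate 3 alone, Pou5f1 had 0.57 (adjusted p = 0.00326), under the fold minimum. Ezh2-null replicate 3 was also the lowest for Plk1, Top2a and Mcm3, and what sets it apart was not tested.

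Genes of the primed epiblast lay in the other direction at day 6. Of 12 tested, 3 were called lower and none higher (median -0.40). In set 1 the median was -0.04 and 1 was called lower (background 0.623%). For set 2 the median was -0.57, with 5 called lower (background 2.91%). At day 8, with CJ7 as the only wild type, the median was 0.73, with 2 called higher (background 0.782%) and none lower. Fgf5, the growth factor that marks the epiblast, gave 96.5, 96.3, 31.7, 61.6 and 71.5 in Ezh2-null arrays, against 186, 199, 236, 464 and 684 in wild-type arrays. The groups did not overlap, and the change was -1.78 ± 0.32 (adjusted p = 0.00199). Pou3f1, a POU factor of the epiblast and neural plate, had -1.21 ± 0.15 (adjusted p = 0.000209) and did not overlap either. Dnmt3b, a de novo DNA methyltransferase that rises in the epiblast, gave 1249, 1143, 271, 941 and 809.5 in Ezh2-null arrays, against 1715, 1454, 1282, 1769 and 2072 in wild-type arrays. Its change of -1.02 ± 0.31 (adjusted p = 0.0276) dropped to -0.68 without Ezh2-null replicate 3, and it also lost its call without wild-type replicate 4 or 5 (adjusted p up to 0.0724). The cofactor Dnmt3l, which naive and germ cells express, was called in the other direction (1.22 ± 0.38, adjusted p = 0.0315), with 256, 244, 75.9, 543 and 527 in Ezh2-null arrays and 98.3, 74.4, 139.6, 92.1 and 106 in wild-type arrays. Its replicate 3 was below 4 of the 5 wild-type arrays. The call was lost in 8 of the 10 fits with an array left out, all but those without Ezh2-null replicate 1 or 3 (adjusted p up to 0.0833). Dnmt3l had 1.66 without Ezh2-null replicate 3 and 0.54 (adjusted p = 0.243) with Ezh2-null replicates 1 to 3 alone. Otx2, a homeobox gene of the epiblast, had 0.04 ± 0.29.

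Genes of the primitive streak and early mesoderm were lower in Ezh2-null cells. Of 23 tested genes, 12 were called lower (background 1.13%) and none higher, with a median of -1.02. The groups did not overlap for 10 that were lower and for 1 that was higher, Twist1. Over all 13807 genes tested they did not overlap for 730 that were lower and 830 that were higher. Mixl1, a homeobox factor of the streak, gave 42.3, 48.8, 59.8, 55.5 and 56.2 in Ezh2-null arrays, against 283, 382, 1814, 1842 and 1914 in wild-type arrays. The Ezh2-null arrays were low in both sets, wild-type arrays of set 2 were above those of set 1, and the change was -3.53 ± 0.33 (adjusted p = 4.19e-05). Eomes, a T-box factor that specifies definitive endoderm and cardiac mesoderm, gave 52.6, 68.1, 47, 120 and 118 in Ezh2-null arrays, against 303, 345, 1273, 1854 and 1855 in wild-type arrays. No arrays overlapped, and the change was -3.05 ± 0.32 (adjusted p = 8.71e-05). Another Eomes probe set had -2.89.

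Aplnr, the apelin receptor of migrating mesoderm, had the largest fall of all genes. It gave 74.7, 44, 15.7, 21.8 and 30.5 in Ezh2-null arrays, against 852, 667, 735, 962 and 1376 in wild-type arrays. The lowest wild-type array was 8.93-fold above the highest Ezh2-null array, and the change was -3.79 ± 0.23 (adjusted p = 3.43e-06). Lhx1, a LIM homeobox factor of the organizer and anterior mesendoderm, gave 18.9, 10.8, 4.5, 5.9 and 5.1 in Ezh2-null arrays, against 211, 178, 286, 415 and 612 in wild-type arrays. Its change was -3.07 ± 0.25 (adjusted p = 1.85e-05), again without overlap. Gsc, the organizer homeobox gene, had -1.90 ± 0.25 (adjusted p = 0.000287), Evx1 of the posterior streak -1.30 ± 0.21 (adjusted p = 0.000885), and Mesp1, the factor of early cardiac mesoderm, -1.20 ± 0.18 (adjusted p = 0.000535). Kdr, the VEGF receptor of haemangioblasts, gave 228, 263, 470.3, 331 and 358 in Ezh2-null arrays, against 842, 681, 998, 1236 and 1272 in wild-type arrays. Its fall was alike in both array sets, at -1.51 and -1.53, and -1.52 ± 0.11 (adjusted p = 9.97e-06) over all arrays. Foxf1 of lateral mesoderm had -1.36 ± 0.14 (adjusted p = 7.56e-05).

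Not every mesodermal gene fell. Snai2 (0.51), Twist1 (0.75) and the ligand Wnt3 (0.51) had values above 0 and were not called, and Wnt3a (-0.13) and Tbx6 (-0.19) lay near 0. Hand1, a factor of extraembryonic and lateral mesoderm, gave 1383, 914, 144, 169 and 113 in Ezh2-null arrays, against 1274, 806, 967, 1245 and 1042 in wild-type arrays. It was called over all arrays (-1.55 ± 0.44, adjusted p = 0.0202), but the arrays of set 1 overlapped and those of set 2 stood apart. With the replicate number as a block in place of the set its adjusted p was 0.0555, and with Ezh2-null replicates 1 to 3 alone 0.175. It also lost its call without Ezh2-null replicate 5 or any of wild-type replicates 3 to 5 (up to 0.0569). Pdgfra, a growth factor receptor gene of mesoderm, had -1.02 ± 0.25 (adjusted p = 0.00908) and lost its call in 5 of the 10 fits with an array left out, and the other 10 called members kept theirs in all. The summed signal of the 23 genes ranged from 2156 to 4509 in Ezh2-null arrays and from 5707 to 11897 in wild-type arrays. At day 0 it was 1371 to 1762 in Ezh2-null arrays and 1320.2 to 1685 in wild-type arrays.

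Among the signals that pattern the streak, a few genes were called. Of 39 genes of the Wnt, BMP, Nodal and FGF pathways, 4 were called lower and 1 higher (median -0.25). The ligand Fgf8, which the streak needs for cell migration, gave 21.4, 18.9, 20.8, 34.3 and 24.8 in Ezh2-null arrays, against 152, 149, 554, 752 and 780.4 in wild-type arrays. The change was -2.90 ± 0.28 (adjusted p = 5.67e-05), with no overlap. A second FGF ligand, Fgf3, had -1.08 ± 0.12 (adjusted p = 0.000124), and -0.97 without wild-type replicate 1. Sp5, a direct target of Wnt signalling, had -1.82 ± 0.19 (adjusted p = 8.04e-05), whereas the Wnt target Axin2 had 0.01 and was not called. The secreted antagonists went both ways: follistatin (Fst), which binds activin, had -1.31 ± 0.24 (adjusted p = 0.00222), and Sfrp2, which binds Wnt ligands, had 1.09 ± 0.08 (adjusted p = 1.12e-05). Nodal (-0.01) and Bmp4 (0.12) lay near 0. Cyp26a1, the enzyme that degrades retinoic acid in the streak, gave 125, 107, 100.1, 90.4 and 64.2 in Ezh2-null arrays, against 405, 389, 993, 1447 and 1564 in wild-type arrays. It was the only member of 13 retinoic acid genes called, at -2.74 ± 0.32 (adjusted p = 0.000147).

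Igfbp3, which binds insulin-like growth factors, was among the largest falls. It gave 146, 165, 132, 179.6 and 196 in Ezh2-null arrays, against 799, 928, 2834, 2518 and 2666 in wild-type arrays. The groups were separated in both sets, with a larger change in set 2, and the change was -3.16 ± 0.24 (adjusted p = 1.22e-05). Of the other 9 genes of the IGF axis, Igfbp7 alone was called (1.08 ± 0.25, adjusted p = 0.00672), in the other direction, and its difference was 0.23 in set 1 and 1.64 in set 2. It dropped under 2-fold without wild-type replicate 4 or 5 or Ezh2-null replicate 3 or 5 (0.95 at the lowest). Cited1, a transcriptional cofactor, had -1.95 ± 0.16 (adjusted p = 2.22e-05), and the vertnin gene Vrtn -2.15 ± 0.24 (adjusted p = 0.000125). Ctsc, a lysosomal protease, had -1.93 ± 0.26 (adjusted p = 0.000367).

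Blood genes differed mainly in array set 1. Hbb-bh1, an embryonic beta globin of primitive red cells, gave 9, 12.2, 13.5, 17.2 and 15.1 in Ezh2-null arrays, against 4662, 4059, 113, 41.3 and 98.3 in wild-type arrays. J1 replicates 1 and 2 stood far above the other wild-type arrays, all Ezh2-null arrays were below all wild-type arrays, and the change was -3.42 ± 0.81 (adjusted p = 0.00823). In set 1 alone it was -6.69 and in set 2 -1.24. The embryonic globins Hbb-y (-3.54 in set 1, -0.08 in set 2) and Hba-x (-4.16 and 0.03) had the same form, and with the replicate block Hbb-y had an adjusted p of 0.117. Hbb-y was called over all arrays (adjusted p = 0.0498) and lost its call in 7 of the 10 fits with an array left out, the exceptions being those without Ezh2-null replicate 3 or wild-type replicate 4 or 5. Lmo2, a partner of Tal1 in blood precursors, fell in both sets: it gave 55.7, 62.6, 52.8, 36.6 and 37.9 in Ezh2-null arrays, against 335, 306, 212, 138 and 145 in wild-type arrays. The groups did not overlap, and the change was -1.62 ± 0.14 (adjusted p = 2.32e-05). Of 19 blood and endothelial genes, 3 were called lower over all arrays, 8 in set 1 (background 0.623% of genes) and 2 in set 2 (background 2.91%).

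Few endoderm genes were called. Of 21 tested, 3 were called lower and none higher, and the median was -0.01. In set 1 1 was called higher and 1 lower (background 1.42% and 0.623%). In set 2 2 were called higher and 5 lower (background 2.88% and 2.91%). Cxcr4, the chemokine receptor of definitive endoderm and mesoderm, gave 99.2, 82.1, 44.4, 33.2 and 42.3 in Ezh2-null arrays, against 235, 197, 237, 332 and 398 in wild-type arrays. Its change was -1.77 ± 0.22 (adjusted p = 0.000209), without overlap. Apoe, a lipid carrier that visceral endoderm makes, had -1.03 ± 0.22 (adjusted p = 0.00431) and dropped to -0.98 without Ezh2-null replicate 3. Gata6, a factor of endoderm and cardiac mesoderm, had -1.02 ± 0.26 (adjusted p = 0.0122) and dropped to -0.95 without that array. Both also dropped under 2-fold without Ezh2-null replicate 5 or wild-type replicate 4 or 5, which left Cxcr4 alone, and Gata6 without Ezh2-null replicate 4. Sox17 (-0.89 ± 0.26) and Foxa2 (-0.42 ± 0.33) were not called, although Sox17 was without wild-type replicate 2 or Ezh2-null replicate 1, and Foxa2 was 0.86 in set 1 and -1.27 in set 2. Dab2 (0.86) and Col4a2 (0.78), which primitive endoderm also expresses, had the highest values and were not called over all arrays. Both were called higher with set 2 fitted alone, and Dab2 also without wild-type replicate 1. The 18 cardiac and muscle genes had a median of 0.01 and none was called, the lowest being Myl7 at -1.0 ± 0.25, which was called lower in 5 of the 10 fits with an array left out.

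**Figure D3:**
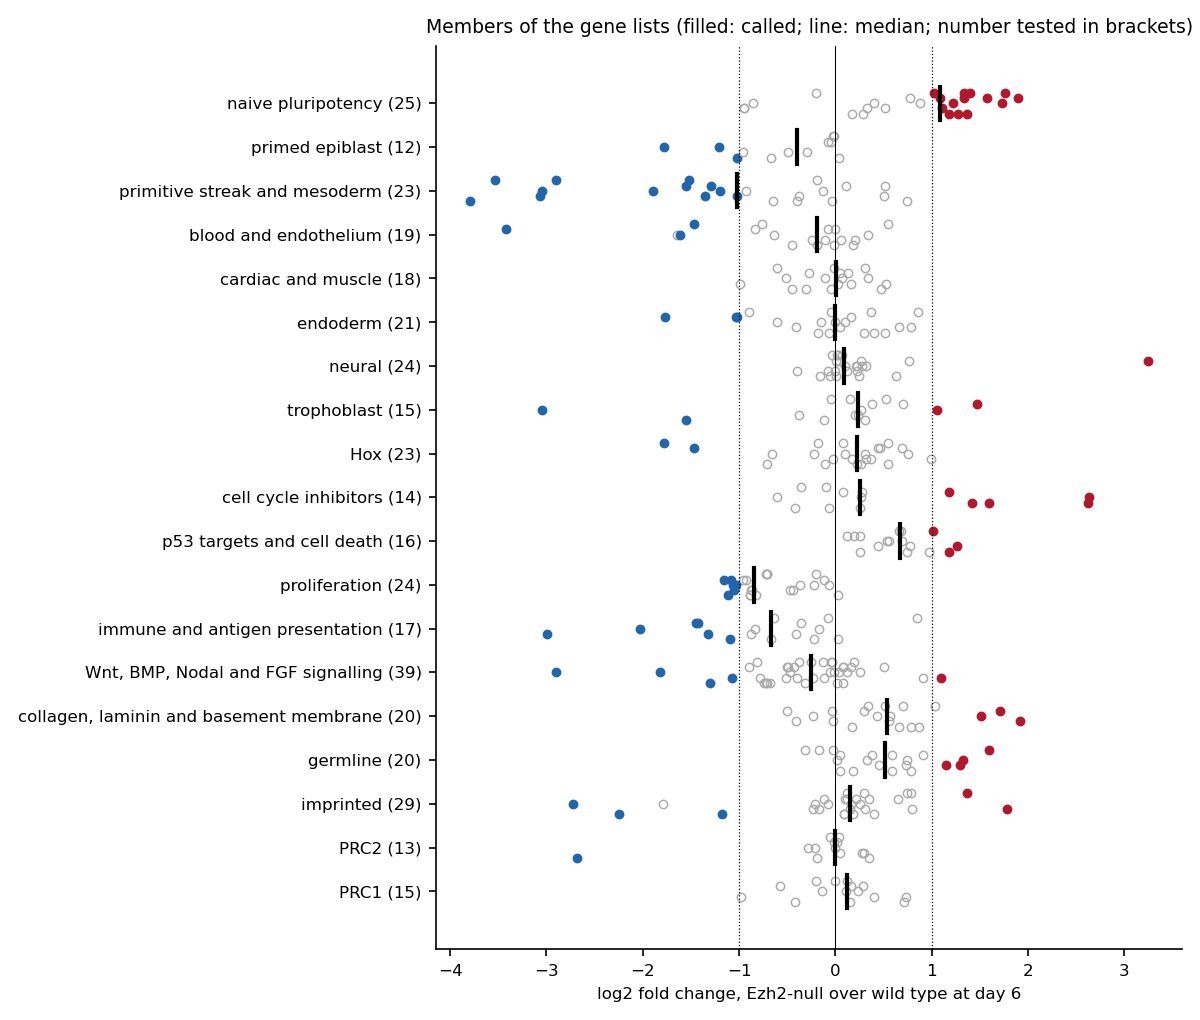
Each circle is a gene, placed by its log2 fold change, Ezh2-null over wild type at day 6 (x axis), in 19 gene lists (rows, with the number tested). Filled circles were called, black lines are list medians and dotted lines mark 2-fold; the naive list has its median at 1.09 and the streak and mesoderm list at -1.02, whereas the Hox, neural, cardiac and PRC1 lists have medians between 0.01 and 0.22.

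Several genes of antigen presentation and the interferon response were lower in Ezh2-null cells in both array sets. Of 17 tested, 6 were called lower (background 1.13%) and none higher, and the median was -0.67. The groups did not overlap for 9 lower members and for 1 higher one, Tap1, against 730 lower and 830 higher of all 13807 genes. In set 1 6 were called lower (background 0.623%). In set 2 6 were called lower (background 2.91%) and 1 higher (background 2.88%). The members can differ: with set 1 fitted alone, Tap2 was not called and Tapbp was called lower. Without Ezh2-null replicate 3 the 6 called over all arrays kept their calls. With Ezh2-null replicates 1 to 3 alone Tap2 lost its call. Many genes of the list are known targets of interferons, through IRF factors that bind the interferon-stimulated response element (ISRE). The promoter of Bst2, the called member whose window holds the ISRE core, is shown from 250 bases before to 50 after the annotated start, 5′ to 3′ on the strand of the gene, from RefSeq on GRCm38.p6, with the matches in capitals.
Bst2, chr8:71537423-71537722, minus strand: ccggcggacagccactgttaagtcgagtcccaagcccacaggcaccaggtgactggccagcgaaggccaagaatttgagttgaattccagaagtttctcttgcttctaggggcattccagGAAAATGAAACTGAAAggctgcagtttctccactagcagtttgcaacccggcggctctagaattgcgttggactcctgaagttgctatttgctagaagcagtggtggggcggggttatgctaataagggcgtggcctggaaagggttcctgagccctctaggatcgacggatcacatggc

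In the Bst2 window the capitals mark 2 overlapping matches of the ISRE core (GAAA, any 2 bases, GAAA, searched on both strands), at -130 and -124 from the start. Over all 32851 windows of the table, 3.44% hold the core. Of the 17 tested members 15 had a window, and 5 of these held the core: B2m, Bst2, Ifit1, Ifit3 and Ifitm3. Of the 6 called lower, 5 had a window and Bst2 alone held it. These are matches of letters in the annotated windows, and binding was not measured.

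The immunoproteasome subunits Psmb10 and Psmb8 had the largest falls of the list. Psmb10 gave 92.2, 96.2, 80.9, 79.5 and 42.1 in Ezh2-null arrays, against 648, 662, 1105, 1047 and 798 in wild-type arrays. Its groups stood 6.74-fold apart at their nearest arrays, and the change was -3.0 ± 0.19 (adjusted p = 3.81e-06). Psmb8 gave 38.6, 42.3, 49.4, 59.2 and 72.4 in Ezh2-null arrays, against 268, 291, 400.2, 289 and 314 in wild-type arrays. The change was -2.03 ± 0.10 (adjusted p = 1.75e-06), and it was alike in set 1 (-2.10) and set 2 (-1.98). The third inducible subunit, Psmb9, had -0.36 ± 0.10 and was not called.

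Irf1, an interferon-induced transcription factor, gave 385, 441, 503, 612 and 567 in Ezh2-null arrays, against 1019, 1110.1, 1799.9, 1599 and 1679 in wild-type arrays. The groups did not overlap, and the change was -1.45 ± 0.09 (adjusted p = 3.32e-06). H2-K1, a classical MHC class I heavy chain, gave 362, 328, 460.4, 417 and 389.6 in Ezh2-null arrays, against 1018, 891, 1153, 1277 and 1218 in wild-type arrays. Its change was -1.43 ± 0.08 (adjusted p = 1.75e-06), and the other 3 H2-K1 probe sets had -1.28, -0.87 and -0.41, with the reservation that probes for MHC genes can share sequence. Bst2, or tetherin, whose promoter is shown above, had -1.33 ± 0.10 (adjusted p = 1.12e-05), and Tap2, a peptide transporter subunit, had -1.09 ± 0.12 (adjusted p = 0.000102), and -0.99 without Ezh2-null replicate 5. The partner subunit Tap1 lay in the other direction: it gave 316, 390.3, 437, 327 and 367 in Ezh2-null arrays, against 204, 242, 194, 137 and 182 in wild-type arrays. Those groups did not overlap, but the difference of 0.84 ± 0.13 (adjusted p = 0.000589) was under 2-fold. B2m, the light chain of MHC class I, had 0.03. The interferon response members Ifit1 (-0.64), Ifitm1 (-0.41), Ifit3 (-0.22), Ifitm3 (-0.17) and Irf7 (-0.08) were not called.

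Several of the largest rises were of genes for membrane and secreted proteins. Parm1, a membrane mucin-like protein, gave 1119, 1399.9, 1588, 1064 and 1471 in Ezh2-null arrays, against 162, 195, 102, 97.2 and 92.1 in wild-type arrays. The lowest Ezh2-null array was 5.46-fold above the highest wild-type array, and the change was 3.10 ± 0.16 (adjusted p = 1.75e-06). Sema3c, a secreted semaphorin that guides axons and neural crest cells, gave 1065, 1742, 2384, 1378 and 2235 in Ezh2-null arrays, against 222, 509, 202, 138 and 134 in wild-type arrays. The groups did not overlap, and the change was 2.80 ± 0.31 (adjusted p = 0.000118). Npnt, a matrix ligand of integrin alpha 8 beta 1, had 2.46 ± 0.22 (adjusted p = 3.06e-05), and Tinagl1, a matricellular protein, had 2.09 ± 0.15 (adjusted p = 8.35e-06). Abca1, the cholesterol exporter, gave 833, 922, 488, 548 and 676 in Ezh2-null arrays, against 163, 186, 92, 73.4 and 70.7 in wild-type arrays. Its change was 2.32 ± 0.11 (adjusted p = 1.75e-06) on this probe set, and the other 2 had 0.94 and 0.47.

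Among the other large rises without overlap were Timp3 (2.12 ± 0.22), an inhibitor of matrix metalloproteinases, Hspb8 (1.97 ± 0.24), a small heat shock protein, and Mbnl1 (1.98 ± 0.30), a splicing regulator. Fam124a (2.14 ± 0.20), Filip1l (2.04 ± 0.26) and Mylpf (1.92 ± 0.36), a fast skeletal myosin light chain, completed the group with the basement membrane chain Col4a5. Col4a5 gave 611, 1105, 1212, 746 and 1122 in Ezh2-null arrays, against 275, 398, 166, 166 and 176 in wild-type arrays. It was one of 3 called higher among 20 matrix genes (none lower, median 0.53), with 1.91 ± 0.24 (adjusted p = 0.000209), beside Col3a1 (1.71 ± 0.24) and Nid1 (1.51 ± 0.13). Col1a1 (-0.41 ± 0.24) and Fn1 (-0.03) were not called.

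Feeder fibroblasts express many of these matrix genes. Of 22 fibroblast markers, 6 were called higher (Timp3, Col3a1, Tnc, Igfbp7, Postn and Lox) and none lower, with a median of 0.49. Their summed signal was 7289.7 to 10912 in Ezh2-null arrays, 4334 to 5503 in wild-type arrays, and 69860.1 to 83075 in the 2 arrays of mouse embryonic fibroblasts. Of the 22, 17 had values above 0, against 6919 of all 13807 genes. Within the single fit 6 were called higher and none lower in set 1 (background 1.42% and 0.623%). In set 2 7 were called higher and 2 lower (background 2.88% and 2.91%). Postn, Lox and Col1a1 differed in their pattern over the arrays. Postn gave 1589, 886, 64.2, 41.3 and 39.7 in Ezh2-null arrays, against 194, 181, 37.8, 40.4 and 44.1 in wild-type arrays. It was highest in Ezh2-null set 1, and its adjusted p was 0.0477 over all arrays and 0.107 with the replicate block. Lox gave 47.4, 117, 279.8, 246 and 374 in Ezh2-null arrays, against 50.3, 109, 74.4, 74.3 and 61.2 in wild-type arrays. It was highest in Ezh2-null set 2. Col1a1 gave 629, 552, 402, 289 and 337 in Ezh2-null arrays, against 379, 480.4, 875, 648 and 609.6 in wild-type arrays. These groups overlapped. The part of feeder RNA in the matrix result was not tested. Timp3, Col3a1 and Tnc were called with each array left out in turn, and without Ezh2-null replicate 3 or wild-type replicate 4 they were the only 3. Postn and Lox each lost their call in 7 of the 10 fits, and Igfbp7 in 4.

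Imprinted genes showed single changes in both directions. Of 29 tested, 2 were called higher and 3 lower, with a median of 0.15. Plagl1, a zinc finger protein that regulates a network of imprinted genes, gave 4914, 4578, 2294, 2316 and 2096 in Ezh2-null arrays, against 1469.7, 1483, 746, 513 and 539 in wild-type arrays. In each set the Ezh2-null arrays lay well above the wild-type arrays, the pooled groups did not overlap, and the change was 1.78 ± 0.10 (adjusted p = 3.12e-06). The other 2 Plagl1 probe sets had 1.36 and 0.07. Dlk1, a transmembrane protein related to Notch ligands, gave 3437, 2187, 400, 251 and 255 in Ezh2-null arrays, against 799, 452, 177, 129.5 and 141 in wild-type arrays. It was higher in Ezh2-null arrays within each set while the sets themselves differed, and the change was 1.37 ± 0.26 (adjusted p = 0.00236).

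The 3 imprinted genes that were lower each depended on some of the arrays. Grb10, an adaptor that dampens insulin and IGF signalling, gave 125, 108, 74.1, 3044 and 3141 in Ezh2-null arrays, against 4298, 4233, 2251, 2527 and 2603 in wild-type arrays. Ezh2-null replicates 1 to 3 were far below all wild-type arrays, replicates 4 and 5 were inside the wild-type range, and the change was -2.72 ± 0.91 (adjusted p = 0.0425). With the replicate block its adjusted p was 0.0547, and without Ezh2-null replicate 3 it was 0.0848. Its call was lost in 8 of the 10 fits with an array left out, all but those without Ezh2-null replicate 4 or 5. The other 2 Grb10 probe sets had -1.10 and -1.48. At day 0 the 6 Ezh2-null arrays also spread widely for Grb10, from 198 to 1594, against 1003 to 2241 in wild-type arrays. Phlda2, a brake on placental growth, gave 2223, 1004, 111, 143 and 121 in Ezh2-null arrays, against 1541, 1006, 2283, 2445 and 2269 in wild-type arrays. It was low only in the Ezh2-null arrays of set 2, with -2.25 ± 0.64 (adjusted p = 0.0202) over all arrays and an adjusted p of 0.0581 with the replicate block. With Ezh2-null replicates 1 to 3 alone Phlda2 had -1.59 (adjusted p = 0.176), and it lost its call without Ezh2-null replicate 4 or 5 or any of wild-type replicates 3 to 5 (up to 0.0571). Asb4 had the same form, with 0.14 in set 1 and -2.05 in set 2, and an adjusted p of 0.0419 over all arrays and 0.0725 with the replicate block. Asb4 lost its call in 7 of the 10 fits, among them that without Ezh2-null replicate 3 (adjusted p = 0.0903). None of the 3 lower genes was called without any 1 of wild-type replicates 3 to 5, and 1 was without any 1 of Ezh2-null replicates 2 to 5, whereas Plagl1 and Dlk1 were called in all 10 fits.

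Of 20 germline genes, 4 were called higher and none lower (median 0.52). Tex19.1, which restrains retrotransposons in germ cells and placenta, gave 490.3, 561, 220.1, 1147 and 764 in Ezh2-null arrays, against 229, 194, 220.2, 107 and 108 in wild-type arrays. Its replicate 3 lay inside the wild-type range, and the change was 1.60 ± 0.35 (adjusted p = 0.00582). Mael, a factor of the piRNA pathway, did not overlap (1.14 ± 0.19, adjusted p = 0.00113). Morc1 (1.33 ± 0.37, adjusted p = 0.0178) and the X-linked homeobox gene Rhox6 (1.29 ± 0.45, adjusted p = 0.0473) overlapped. Rhox6 gave 889, 226, 4.8, 65.5 and 37.4 in Ezh2-null arrays, against 58.3, 41.6, 15.6, 15.4 and 12.8 in wild-type arrays. It was high in Ezh2-null set 1 and spread widely in set 2, and its adjusted p was 0.071 with the replicate block. With Ezh2-null replicates 1 to 3 alone, or with J1 as the only wild type, none of these 4 was called. Without wild-type replicate 4 or Ezh2-null replicate 5 there were 2, Tex19.1 and Mael, which were called with each array left out, and Rhox6 lost its call in 9 of those 10 fits. Trophoblast genes gave 2 called higher, Krt7 (1.47 ± 0.15, adjusted p = 6.85e-05) and Tfap2a (1.05 ± 0.11, adjusted p = 9.85e-05, and 0.99 without wild-type replicate 4), and 2 lower, Eomes and Hand1, which the streak list holds as well. The trophectoderm factor Cdx2 had -0.38 ± 0.09 and the keratin Krt18 0.20 ± 0.10, and neither was called.

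Several other lists held a single called gene: the hypoxia and glycolysis list with the lactate transporter Slc16a3 (-1.90 ± 0.28, adjusted p = 0.000589), the Hedgehog list with the co-receptor Cdon (1.45 ± 0.14, adjusted p = 6.06e-05), the immediate early list with Fos (1.04 ± 0.09, adjusted p = 3.31e-05, and 0.99, under the fold minimum, without Ezh2-null replicate 3), and the epithelial list with the cadherin Cdh11. Cdh11 gave 1439.6, 1072, 87.8, 58.3 and 90.1 in Ezh2-null arrays, against 974, 865, 568, 629.7 and 679.7 in wild-type arrays. It had 0.42 in set 1 and -2.58 in set 2, and the adjusted p was 0.0385 over all arrays and 0.0968 with the replicate block. Cdh11 lost its call without any 1 of the 6 arrays of set 2, with an adjusted p of 0.081 without Ezh2-null replicate 3. None was called over all arrays among 15 Notch genes, 8 ribosomal protein genes, 5 genes of the two-cell-like state and 4 sex chromosome genes. The Notch effector Hey2 was called higher without wild-type replicate 5 or Ezh2-null replicate 4, and Eif2s3y lower without Ezh2-null replicate 3.

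The genotype difference was then examined within each array set, as contrasts of a single fit over the 10 arrays. In set 1 (2 against 2 arrays) 282 genes were called (2.04%), and in set 2 (3 against 3) 799 (5.79%), of which 397 were higher (2.88%). Of the genes called over all arrays, 262 of 263 higher ones lay above 0 in both sets and 150 of 156 lower ones below 0 in both, and 103 and 57 of them were at least 2-fold in both. Since the call uses both sets, these counts describe it and are no independent check. The test of the difference between the sets called 281 genes (2.04%), 69 with a more positive (0.5%) and 212 with a more negative effect in set 2 (1.54%). It called 82 of the 419, among them Mixl1 (-2.22 in set 1, -4.40 in set 2, adjusted p of the difference = 0.000121), Fgf8 (-1.81, -3.63, 0.0021) and Phlda2 (0.26, -3.92, 0.000555). For Zic1, Cdkn2a, Psmb8, Irf1 and Kdr the adjusted p of the difference was 0.233, 0.485, 0.767, 0.398 and 0.973.

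**Figure D4:**
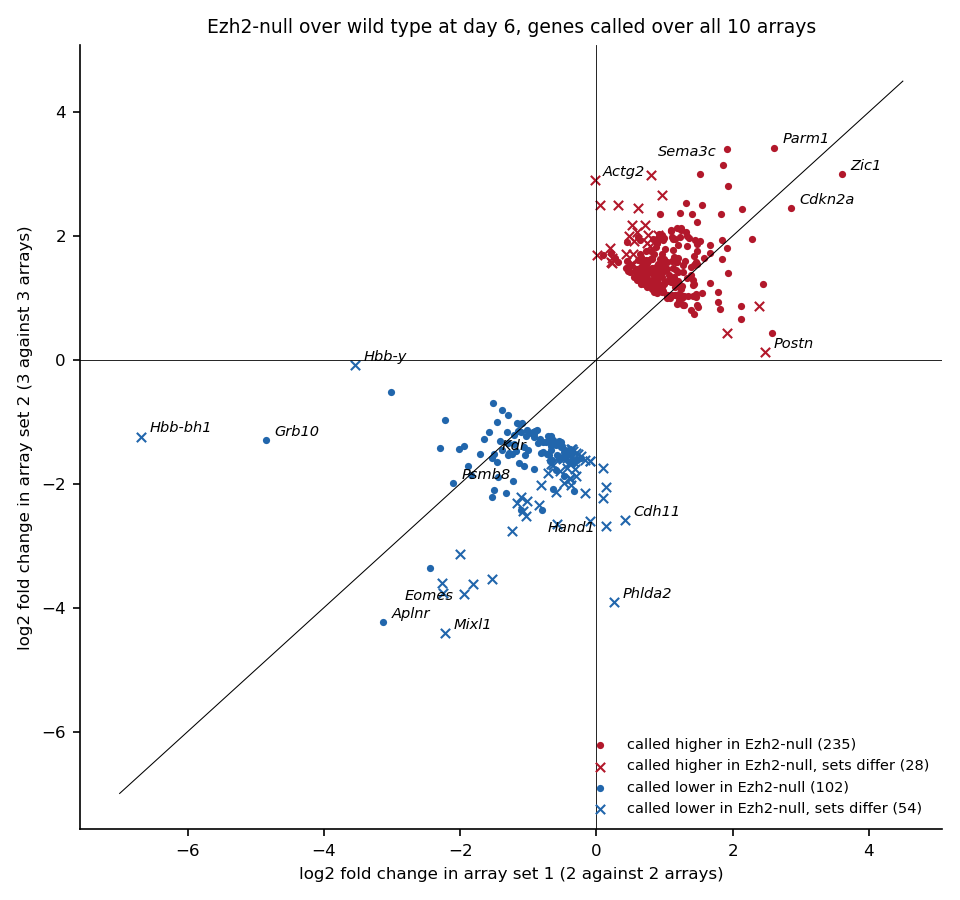
The 419 called genes are placed by their log2 fold change, Ezh2-null over wild type, in array set 1 (x axis, 2 against 2 arrays) and set 2 (y axis, 3 against 3), with crosses for the 82 whose effect differed between the sets by limma. Zic1, Parm1 and Cdkn2a lie far from 0 in both sets, Hbb-bh1 and Grb10 fall mainly in set 1, and Phlda2, Hand1 and Cdh11 only in set 2.

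The 2 sets differ in line and in the level of streak genes in wild-type cells. Set 1 wild type is J1 alone, and set 2 holds 1 J1 and 2 CJ7 arrays. In wild-type arrays of set 2 the streak genes Mixl1 (1814 to 1914) and Eomes (1273 to 1855) were several-fold above set 1, and J1 replicate 3 lay with the CJ7 arrays. Genotype effects in set 1 and set 2 correlated at r = 0.57 across the 13807 genes, which are not independent replicates. Over the same genes the shift between sets correlated at r = 0.71 between Ezh2-null and wild-type arrays. With the 3 J1 arrays as the only wild type 270 genes were called, and with the 2 CJ7 arrays 873.

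The differences of day 6 were set against the same genotypes at days 0, 2 and 8, which share no array with day 6. At day 0 there were 6 Ezh2-null arrays and 7 wild-type arrays of 3 lines, J1, CJ7 and E14tg1. E14tg1 has no array at day 6, so comparisons with day 0 change the wild-type lines together with the day. In all, 6 genes were called at day 0 (0.0435%). They were Cd99 and Otx2 (higher, 0.0145%) and Ezh2, Gm20767, Usp17la and AF067061 (lower, 0.029%), of which Cd99 and Ezh2 were called the same way at day 6, Cd99 with a call lost in 3 of the 10 fits with a day 6 array left out. At day 2 (4 against 4) 21 were called (0.152%): 11 of the 19 higher ones (57.9%, and 4.18% of those higher at day 6) were called higher at day 6, among them Zic1, Cdkn2b, Mylpf, Tex19.1, Meis1 and Cd99. The lower ones were Ezh2 and Prickle1 (0.0145%). At day 8 (2 against 2, wild type CJ7) 147 were called (1.06%), and 29 of 108 higher ones (26.9%, and 11% of those higher at day 6) and 18 of 39 lower ones (46.2%, and 11.5% of those lower at day 6) were called the same way at day 6.

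The genotype effect at day 6 was also tested against that at days 0 and 2. The genotype-by-day interaction called 428 genes between days 6 and 0 (3.1%) and 207 between days 6 and 2 (1.5%). Of the 419, 308 and 170 were among them with the same sign. The 419 were chosen for a large difference in the same day 6 arrays, so these 2 counts are no independent result. On days 0, 2, 6 and 8 Parm1 differed by 0.06, 0.82, 3.10 and 1.16, and its interaction with day 0 was 3.04 (adjusted p = 4.11e-10). Zic1 differed by 0.51, 1.88, 3.25 and 2.99 on the same days. Its level was 32.2 to 58 in Ezh2-null arrays and 8.7 to 26.1 in wild-type arrays at day 0 and 827 to 914 in Ezh2-null arrays and 76.4 to 86.6 in wild-type arrays at day 8.

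Cdkn2a differed by 0.79 at day 0 and 0.82 at day 2, under the fold minimum, and by 2.10 at day 8. At day 0 it gave 35.7 to 58.9 in Ezh2-null arrays and 8.9 to 20.9 in wild-type arrays. The effect at day 6 exceeded that at day 2 by 1.80 (adjusted p = 0.000254). Cdkn2b was already called at day 2 (1.21, adjusted p = 0.026). Among the naive genes, Nanog differed by 0.31, 0.66, 1.22 and 1.31 on the 4 days. Its level at day 0 was 2239.9 to 2429 in Ezh2-null arrays and 1478 to 2035 in wild-type arrays, and at day 8 1912 to 2025 in Ezh2-null arrays and 713 to 843 in wild-type arrays. At days 0 and 2 none of the 25 naive genes was called, and at day 8, with CJ7 as the only wild type, 9 were called higher (background 0.782%).

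Streak genes were low in both genotypes before day 6. Mixl1 gave 14.1 to 31.9 in Ezh2-null arrays and 14.3 to 31.6 in wild-type arrays at day 0 and 24.2 to 115 in Ezh2-null arrays and 50.9 to 79.6 in wild-type arrays at day 2. Its effect at day 6 differed from that at day 2 by -3.30 (adjusted p = 0.000471). By day 8 it gave 29.2 to 35.2 in Ezh2-null arrays and 79.5 to 123 in wild-type arrays. Aplnr stayed apart at day 8, with 33.1 to 47.7 in Ezh2-null arrays and 465 to 472 in wild-type arrays. Of the streak and mesoderm list 4 were called lower at day 8, Aplnr, Lhx1, Kdr and Foxf1 (background 0.282%).

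The immune genes followed another course. Irf1 gave 573 to 1179 in Ezh2-null arrays and 549.6 to 796 in wild-type arrays at day 0 and 1049 to 2110.2 in Ezh2-null arrays and 1098 to 1454 in wild-type arrays at day 2, with overlap on both days. At day 8 it gave 589.7 to 704 in Ezh2-null arrays and 640 to 694 in wild-type arrays, a difference of -0.05. Psmb10 differed by -0.12, -0.92, -3.0 and -0.86 on days 0, 2, 6 and 8, and the growth from day 0 to day 6 was called (-2.88, adjusted p = 1.78e-07). None of the 17 was called at day 0, 2 or 8.

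**Figure D5:**
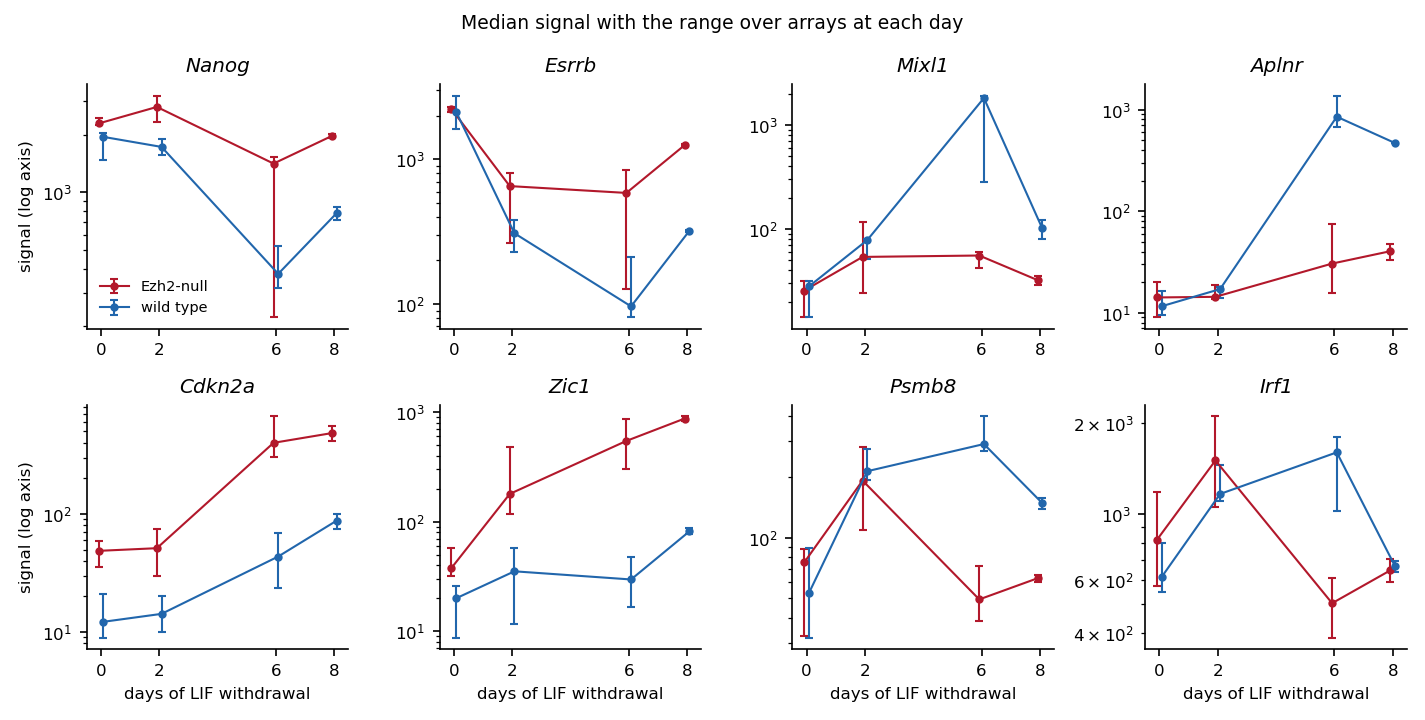
Median signal (log axis) with the range over arrays for 8 genes in Ezh2-null cells (red) and wild-type cells (blue) at days 0, 2, 6 and 8 of LIF withdrawal. Nanog and Esrrb have higher medians in Ezh2-null cells at days 2, 6 and 8, Mixl1 and Aplnr rise in wild-type arrays at day 6, Cdkn2a and Zic1 rise in Ezh2-null arrays, and Psmb8 and Irf1 are lower in Ezh2-null arrays at day 6.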

How the data were processed

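Affymetrix arrays were read from the deposited table of 45037 probe sets by 53 arrays. Its values are intensities on a linear scale from the authors, per the labels made from biotinylated cRNA, and the summarisation and scaling are not given in the sources used here. Array medians of the 10 arrays differed by 0.11 on the log2 scale after 32 was added, and the values were not normalized again. Probe sets with 1 symbol in the platform annotation (34945, against 932 with several and 9160 with none, which were left out) were kept above the array median in at least 2 of the 53 arrays, and the probe set with the highest mean stood for its gene, which left 13807 of 18193 genes. No column of the table was left out (0 unused).

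The model was fitted to log2(intensity + 32) of the deposited values over the 10 arrays (genotype and array set, 7 residual degrees of freedom), in limma 3.58.1 under R 4.3.3, with Benjamini-Hochberg adjustment. Days 0 and 2 were each fitted together with day 6 (23 and 18 arrays, with an interaction of genotype and day), and day 8 over all 53 arrays with group means, which assumes that its 2 arrays per group vary like the others. The code was checked on simulated data. The members and the gene lists were chosen with earlier results of these data known. Named genes were the 15 largest rises and falls without overlap, called members of 32 lists and up to 4 others per list with the smallest p, the genes that define a cell state, and the largest set and day interactions. A few further list members and the genes outside the lists in the closing section were chosen after their values were seen.

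Replicate numbers are shared by the 2 groups. Deviations from the group means of arrays with the same number correlated at 0.608, 0.721, 0.506, 0.505 and 0.384 for replicates 1 to 5, and so counted as pairs by the rule that each exceed 0.1. The highest correlation with another number was 0.542, 0.644, 0.46, 0.576 and 0.595, above that of the own number for replicates 4 and 5. No label says what a number shares, and after the set means were taken out the correlations were 0.295, 0.295, 0.0212, -0.0437 and 0.0771. Alternatives were no block, a replicate block, other arrays, lines, normalizations, added constants, filters, probe set rules and fold minimums, and each array left out.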

Additional observations from a re-analysis of the deposited data

Results flagged for a closer look

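Single arrays far from the other 4 of their group appeared 20 times among 480 groups of 5 arrays, where chance alone gives about 24. Of the 20, 10 were Ezh2-null replicate 3 lying low: Nanog at 223, Sox2 at 249, Esrrb at 127, Nr0b1 at 44, Nr5a2 at 52, Tfcp2l1 at 149, Dppa2 at 172, Dppa5a at 3239, Fbxo15 at 99.5 and Morc1 at 19.5. These are pluripotency and germline genes. The same array was high for the two-cell stage gene Tcstv1, at 15.3. The other Ezh2-null values were Psmb10 in replicate 5 (42.1, low), Afp in replicate 1 (93.9, high), Rbbp7 in replicate 1 (6021, high) and Ptgs2 in replicate 1 (296, low). Wild-type values were Dppa4 (297) and Mki67 (871) in replicate 3, both low, Loxl1 (268) and Tnc (322) in replicate 2, both high, and Sox1 in replicate 4 (18.5, high).

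The genotype effect differed between the array sets, by limma's test of the difference, for 69 genes in the positive and 212 in the negative direction. The embryonic globins had the largest positive values of set 2 minus set 1, with Hbb-bh1 at 5.45, Hba-x at 4.19 and Hbb-y at 3.46, beside the smooth muscle actin Actg2 at 2.93. The largest negative ones were Phlda2 at -4.17, the Wnt antagonist Frzb at -3.72, the carbonic anhydrase Car4 at -3.21 and Cdh11 at -3.0. All 8 were chosen for the size of this difference.

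The effect at day 6 differed from that at day 0 for 259 genes in the positive and 169 in the negative direction, and that at day 2 for 98 and 109. Against day 0 the largest positive values were Parm1 (3.04), Sema3c (2.85), Zic1 (2.73), the prostaglandin synthase Ptgs2 (2.48), Gm20767 (2.48), Fam124a (2.46), Tinagl1 (2.34) and Npnt (2.33). Gm20767 was called lower at day 0 and had 0.27 ± 0.15 at day 6, not called. The largest negative values were Aplnr (-3.85), Mixl1 (-3.52), Hbb-bh1 (-3.41), Eomes (-3.15), Lhx1 (-3.04), Fgf8 (-2.94), Psmb10 (-2.88) and Igfbp3 (-2.85).

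Against day 2 the largest positive values were Sema3c (2.52), Parm1 (2.28), Abca1 (1.89), the heparan sulfate enzyme Hs6st2 (1.83), Cdkn2a (1.80), Fam124a (1.78), the Myc antagonist Mxd4 (1.73) and the ephrin Efna5 (1.68). The largest negative values were Aplnr (-3.75), Hbb-bh1 (-3.37), Mixl1 (-3.30), Eomes (-3.15), Fgf8 (-2.90), Lhx1 (-2.81), Igfbp3 (-2.65) and Cyp26a1 (-2.48). Mixl1, Aplnr, Eomes, Lhx1 and Fgf8 stand in both lists.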

How the results depend on the processing

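The 419 calls at day 6 (263 higher, 156 lower) became 407 (260 and 147) with a replicate block, which ended the calls of 8 of the 240 named genes (Asb4, Cdh11, Grb10, Hand1, Hbb-y, Phlda2, Postn and Rhox6) and changed no other. Without any block there were 339 calls, with quantile normalization 416, and with medians centred 414. With 4 times the added constant there were 189 (129 and 60), averaging the probe sets of a gene 267 (162 higher), with a 1.5-fold minimum 1538 (857 and 681) and with no minimum 4163 (2173 and 1990). Fitted on its own arrays alone, apart from the joint fit of the report, set 1 gave 83 lower, and set 2 gave 795, with 402 lower. J1 as the only wild type gave 270 (94 lower), and CJ7 gave 873 (433 and 440). Leaving out each array gave 354 to 516 calls (225 to 312 higher, 113 to 204 lower). In set 1 alone 6 named genes turned sign: Actg2 (-0.024), Asb4 (0.14), Cdh11 (0.42), Frzb (1.02), Hand1 (0.15) and Phlda2 (0.26). Averaging ended 30 calls of named genes, the larger constant ended 43, and Ezh2-null replicates 1 to 3 alone, a setting added after seeing the data, ended 25 and gave 374 calls (239 and 135). The difference between the sets, 281 calls, gave 143 (44 and 99) with the larger constant, 161 (44 and 117) with the mean of probe sets, 40 higher with no filter, 693 (107 and 586) with Ezh2-null replicates 1 to 3, and 62 to 476 with each array left out (9 to 186 higher, 53 to 302 lower), lowest without Ezh2-null replicate 1 and highest without Ezh2-null replicate 2. Day 6 minus day 2, 207 calls, gave 89 (47 and 42) with the larger constant, 134 (62 and 72) with the mean of probe sets, and 163 to 337 with each array left out (75 to 157 higher, 83 to 180 lower), highest without Ezh2-null replicate 1 of day 6. Day 6 minus day 0, 428 calls, gave 191 (63 lower) with the larger constant, 159 higher with the mean of probe sets, and 362 to 552 (223 to 324 higher, 121 to 230 lower). The causes were not tested. The number of arrays, the added constant and the unknown scaling limit small changes of dim genes.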

Other observations

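Some interferon-inducible genes outside the list of antigen presentation were also called lower in Ezh2-null cells at day 6. These genes were picked after their values were seen, so their number says nothing about how common such calls are. The largest fall was that of Oasl2, a 2′-5′-oligoadenylate synthetase-like gene, which averaged 27.6 ± 7.57 in Ezh2-null arrays and 183 ± 15.5 in wild-type arrays (SD, n = 5 each), a change of -1.86 ± 0.10 (adjusted p = 1.75e-06) by limma. The groups did not overlap, and the change was -1.85 in set 1 and -1.87 in set 2. Irgm1, an immunity-related GTPase, averaged 225 ± 59.6 in Ezh2-null arrays and 769.9 ± 75.7 in wild-type arrays, a change of -1.67 ± 0.13. The guanylate-binding protein genes Gbp2 (-1.32 ± 0.17) and Gbp3 (-1.56 ± 0.18), the ADP-ribosyltransferase genes Parp14 (-1.71 ± 0.12) and Parp12 (-1.08 ± 0.08), Isg20 (-1.45 ± 0.11), the peptide trimming enzyme Erap1 (-1.30 ± 0.09) and the RNA sensor Ifih1 (-1.05 ± 0.11) were called lower as well, without overlap. Ifih1 dropped under 2-fold without wild-type replicate 2 or 3 (-0.96 at the least), and the other 8 kept their calls with each array left out. At day 0 these 9 genes lay between -0.17 and 0.20, and none was called. At day 8 Gbp2 had -1.25 and Gbp3 -1.16, not called, and Parp12 had 0.43.

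Genes of the replication machinery outside the proliferation list were lower too, again picked after their values were seen. The replication ligase Lig1 averaged 658 ± 404 in Ezh2-null arrays and 1434 ± 154 in wild-type arrays, a change of -1.31 ± 0.28, with -0.47 in set 1 and -1.87 in set 2. Thymidine kinase 1 (Tk1, -1.10 ± 0.11), the GINS subunit gene Gins2 (-1.34 ± 0.14) and the origin recognition gene Orc6 (-1.15 ± 0.12) were called lower as well, with values below 0 in both sets. On the other side, Eda2r, a receptor gene that p53 induces, averaged 629.8 ± 127 in Ezh2-null arrays and 254 ± 88.6 in wild-type arrays, a change of 1.24 ± 0.14 (adjusted p = 0.000114) by limma without overlap. The translesion polymerase gene Polk (1.01 ± 0.12) and the lysosomal protease gene Ctsd (1.18 ± 0.16) were called higher without overlap, and Polk dropped under 2-fold in 4 of the 10 fits with an array left out.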
